A study of Mus musculus with 2 samples.

Results

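SR proteins and heterogeneous nuclear ribonucleoproteins (hnRNPs) bind nascent transcripts and set which exons are spliced in. The genes described here are those with a protein-coding transcript whose symbol is Srsf followed by a number, Tra2a, Tra2b, or Hnrnp followed by letters or digits. They are 33 of the 21901 genes with a protein-coding transcript, 13 SR and Tra2 genes and 20 hnRNP genes. Of these, 26 have an annotated unproductive transcript, meaning one that GENCODE classes as nonsense-mediated decay or as retained intron (11 SR and Tra2 genes, 15 hnRNP genes). The other 7 (Hnrnpa0, Hnrnpab, Hnrnpf, Hnrnph1, Hnrnph2, Srsf10 and Srsf12) have none, so their unproductive share is 0 by annotation and was not compared.

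Total RNA was taken from left cerebral cortex of 14-day-old female mice of strain B6CASTF1/J, and 300 ng per library were sequenced with ERCC spike-ins of a profile for stranded, ribosomal-RNA-reduced libraries. The only group holds 2 biological replicates with no treatment and no second condition, so nothing here compares conditions. The labels do not settle whether a library pools mice: both carry a description that names 3 females and share a donor entry, while the tissue labels differ in their number and only that of replicate 1 speaks of 3 females. With 1 group of 2 libraries, the p-values between the libraries cover counting error only. They cover neither the spread between animals nor errors in assigning reads to transcripts.

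SR proteins carry an RNA recognition motif and a domain rich in arginine and serine, and they mostly favour exon inclusion, whereas many hnRNPs favour skipping. Both families are known for regulating their own transcripts: a highly conserved "poison" exon, or an intron in the 3′ untranslated region, places a stop codon upstream of an exon junction and sends the mRNA to nonsense-mediated decay (NMD) in the cytoplasm. Transcripts that keep an intron are often held in the nucleus. Steady-state levels, as measured here, do not give the rate at which NMD substrates are made, because these are degraded.

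The 33 genes have 296 annotated transcripts, of which 139 are protein-coding, 39 NMD, 80 retained-intron and 38 processed transcripts without an open reading frame. The stop positions given next describe the annotation that also sets the NMD class, and are no result of these libraries. The stop codon of all 39 NMD transcripts lay more than 50 nucleotides (nt) upstream of the last exon junction, at 52 to 1801 nt (median 251). In 15 of them, from 9 genes, the stop lay in an exon that no protein-coding transcript of the gene overlaps. In 12, from 7 genes, the stop was the same as that of a protein-coding transcript and the junction lay behind it, as in Srsf6, Srsf2 and Hnrnpa1. The remaining 12 had a stop of another kind.

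The exon parts up to the premature stop are shown for the leading NMD transcript of 8 of those 9 genes, because these bases set the stop apart from the coding isoforms. Each runs 5′ to 3′ on the transcript strand from the first base of the exon to the stop codon, which is in capitals. They were read from GENCODE M21 transcripts with mm10 coordinates.
Srsf3-201, exon 4, chr17:29039454-29039487, + strand: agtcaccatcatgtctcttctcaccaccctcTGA
Srsf7-203, exon 4, chr17:80205054-80205081, - strand: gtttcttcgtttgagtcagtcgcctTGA
Srsf11-206, exon 4, chr3:158024209-158024231, - strand: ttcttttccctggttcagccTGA
Srsf9-205, exon 2, chr5:115328347-115328428, + strand: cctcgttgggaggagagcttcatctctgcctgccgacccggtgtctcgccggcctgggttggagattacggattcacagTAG
Srsf4-204, exon 1, chr4:131884295-131884390, + strand: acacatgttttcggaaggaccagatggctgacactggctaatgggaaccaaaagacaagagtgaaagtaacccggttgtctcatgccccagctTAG
Tra2a-202, exon 2, chr6:49252965-49253108, - strand: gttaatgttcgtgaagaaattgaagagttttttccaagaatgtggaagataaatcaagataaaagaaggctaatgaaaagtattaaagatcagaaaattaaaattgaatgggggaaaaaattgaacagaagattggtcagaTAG
Tra2b-206, exon 2, chr16:22259181-22259261, - strand: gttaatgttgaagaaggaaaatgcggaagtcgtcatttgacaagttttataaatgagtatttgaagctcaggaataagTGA
Hnrnpll-203, exon 7, chr17:80044976-80045022, - strand: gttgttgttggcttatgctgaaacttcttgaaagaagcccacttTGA

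The exons differed in length and in where the stop fell. In Srsf3-201 the exon was 456 nt long and the stop was complete after 34 nt, and in Srsf7-203 it was 460 nt long with the stop complete after 28 nt. The Srsf11-206 exon was 109 nt long with its stop after 23 nt, and the Hnrnpll-203 exon 83 nt long with its stop after 47 nt. The exons of the paralogs Tra2a and Tra2b, 306 and 276 nt long, both begin with gttaatgtt and then part, a pair singled out after the sequences were seen. The Tra2a part reads 47 codons and the Tra2b part 26 codons before the stop. GC content was 29.2% and 33.3% in the Tra2a and Tra2b parts and 61.0% in that of Srsf9. The annotated reading frame of Srsf9-205 and of Srsf4-204 has no start codon inside the transcript.

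**Figure D1:**
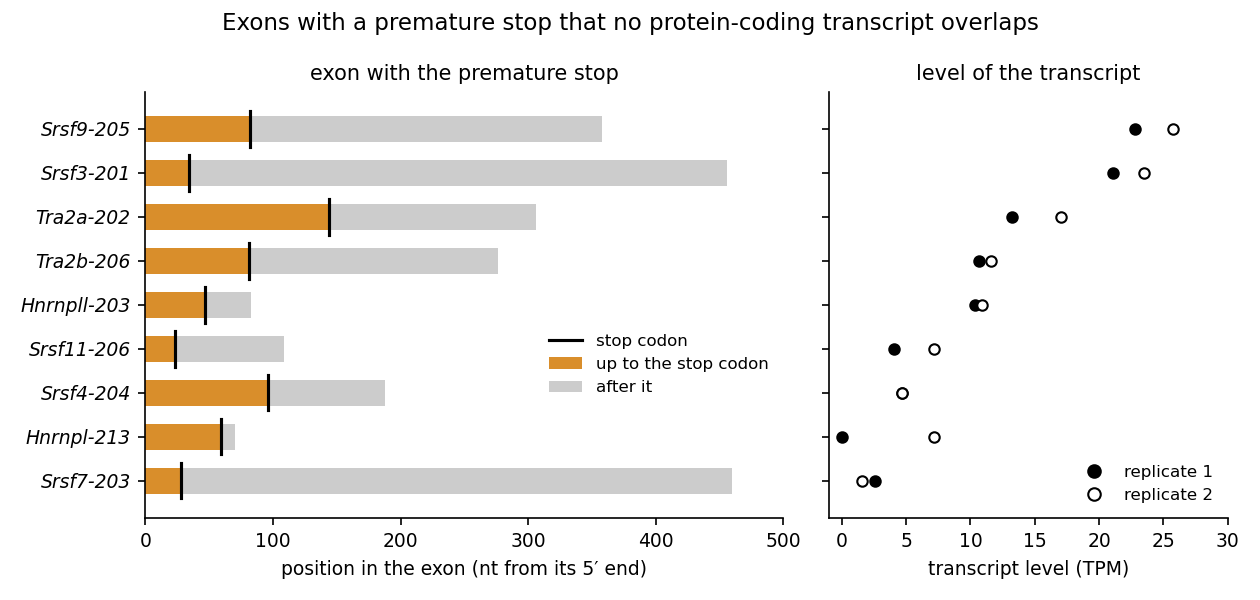
Left, length in nucleotides of the exon with the premature stop in the leading NMD transcript of 9 genes, split at the stop codon. Right, level of that transcript in TPM in replicate 1 (filled) and replicate 2 (open). Srsf9-205 and Srsf3-201 stand highest, and Hnrnpl-213 is near 0 in replicate 1 and at 7.16 TPM in replicate 2.

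The levels of these transcripts are given in TPM, transcript numbers scaled for length so that each table sums to 1000000. Srsf9-205 stood at 22.8 TPM (replicate 1) and 25.7 TPM (replicate 2), and Srsf3-201 at 21.1 and 23.5 TPM. Tra2a-202 measured 13.2 and 17.1 TPM, Tra2b-206 10.6 and 11.6 TPM, and Hnrnpll-203 10.4 and 10.9 TPM. Srsf11-206 was lower at 4.03 and 7.17 TPM, as were Srsf4-204 at 4.70 and 4.66 TPM and Srsf7-203 at 2.60 and 1.57 TPM. All 8 printed parts belong to transcripts with a level above 0 in both libraries, which rests on the choice of parts. The part left out, of Hnrnpl-213, belongs to a transcript near 0 in replicate 1 and at 7.16 TPM in replicate 2. Transcripts with a stop in such an exon held 26.7% and 28.8% of the NMD TPM of all members in the respective libraries. Those that share the stop of a coding isoform held 35.0% and 36.5%, and the others 38.3% and 34.7%. All these values come from tables made from the reads. The authors' other quantification, from a transcriptome alignment, gave Tra2a-202 7.73% and 18.0% of its gene's TPM, against 39.6% and 38.0% from the reads. Hnrnpll-203 had 11.9% and 17.0% there against 27.0% and 26.1%, and Srsf9-205 had 53.3% and 50.9% against 49.5% and 45.8%.

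Across the 26 genes, the unproductive share (NMD plus retained-intron TPM over all TPM of the gene) had a median of 28.4% in replicate 1 and 31.2% in replicate 2 (29.8% ± 1.99, SD, n = 2). For the 8621 genes with such transcripts and at least 1 TPM in both libraries, the median was 12.4% and 14.1% (13.3% ± 1.16). A mean share of 20% or more was reached by 16 of the 26 members, against 38.3% of those genes, and a share of 50% or more by 5 members, against 9.57%. The SR and Tra2 genes had a median of 39.2% and 43.7%. The hnRNP genes, at 16.7% and 16.1%, were nearer to the median of all genes, in the tables made from the reads. This nearness did not hold in the authors' other quantification, from a transcriptome alignment. There the middle hnRNP gene by mean share was Hnrnpk at 26.2%, and the middle SR or Tra2 gene was Tra2a at 34.0%. All genes had a median of 11.3% there. These medians are descriptions without a test.

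The SR and Tra2 genes spanned a wide range. Srsf11, a splicing regulator with a long arginine- and serine-rich region, had 59.6% and 63.4% of its TPM in unproductive transcripts. Tra2a, which binds purine-rich exonic enhancers, followed at 58.8% and 63.2%, and Srsf6 at 52.3% and 59.8%. Each of these 3 genes thus had more than 50% unproductive TPM in both libraries in the tables made from the reads. In those made from a transcriptome alignment this held for Srsf11 (61.2% and 71.0%), but not for Tra2a (25.8% and 42.2%) or, in replicate 1, for Srsf6 (45.9% and 55.4%). Of the reads, 45.2% and 52.5% were unproductive in Srsf11 and 36.5% and 46.1% in Srsf6. Srsf9 had 49.5% and 45.8%, Srsf3, the smallest SR protein, 39.2% and 51.9%, and Tra2b 39.4% and 43.7%. From the alignment Srsf3 had 30.7% and 32.2%, a lower and more level share. Srsf7, which also exports mRNA through the adaptor role it shares with Srsf3, had 33.8% and 41.4%. Srsf1, the founding member of the family, had 30.5% and 32.6%, and Srsf2, an activator through exonic enhancers, 20.6% and 25.7%. Srsf2 was the lowest gene above the 20% mark and Srsf4 the highest below it, at 19.4% and 17.7%. Srsf5 was the lowest of the family in replicate 1, at 10.9%, but lay above Srsf4 in replicate 2, at 22.3%.

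The hnRNP genes also spanned a wide range. Hnrnph3 had 56.1% and 62.2% unproductive TPM, Hnrnpll, a regulator of CD45 splicing in lymphocytes, 53.5% and 54.2%, and Hnrnpu, a nuclear scaffold protein, 49.5% and 48.8%. Hnrnpdl had 39.8% and 40.7%, and Hnrnpa2b1, known for binding RNAs that are carried to dendrites, 38.4% and 41.0%. Hnrnpa1 had 26.3% and 29.6%, and Hnrnpl 21.7% and 29.8%. Below the 20% mark lay Hnrnpm (12.6% and 16.1%), Hnrnpd (9.73% and 15.9%), Hnrnpr (16.7% and 8.63%) and Hnrnpk (13.0% and 8.59%). From the alignment, Hnrnpm (22.7% and 25.6%), Hnrnpd (40.0% and 37.8%) and Hnrnpk (26.9% and 25.4%) lay above that mark. The lowest shares were those of Hnrnpul2 (3.31% and 4.31%), Hnrnpul1 (3.00% and 3.32%), Hnrnpa3 (0.884% and 0.949%) and Hnrnpc (0.356% and 0.256%), which have retained-intron but no NMD transcripts in the annotation. The SD between the libraries ranged from 0.0463 to 9.01 percentage points over the members (median 2.64). Srsf11 (61.5% ± 2.70, SD, n = 2) and Tra2a (61.0% ± 3.14) do not differ beyond their spread. Hnrnpll (53.8% ± 0.496) and Hnrnpu (49.2% ± 0.511) lay further apart than their SDs, which was not tested. From the alignment their order was reversed, with means of 40.5% for Hnrnpll and 67.2% for Hnrnpu.

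**Figure D2:**
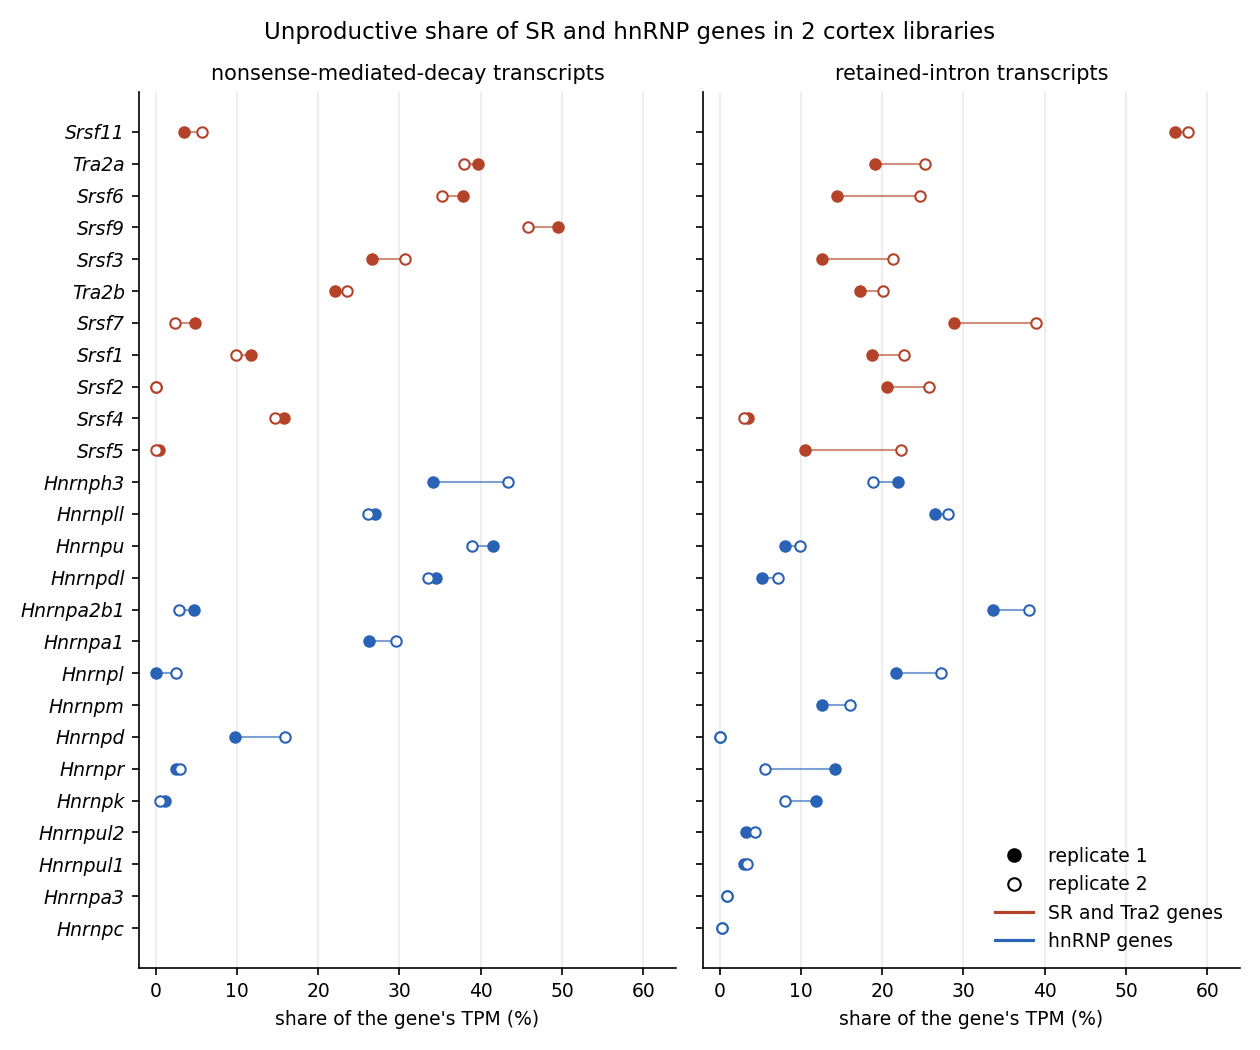
Share of each gene's TPM (%) in NMD transcripts (left) and retained-intron transcripts (right), in replicate 1 (filled) and replicate 2 (open), for SR and Tra2 genes and hnRNP genes. A missing point means that the gene has no annotated transcript of that class. Srsf9 lies highest on the left, and Srsf11 stands alone on the right above 50%.

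The members differed in which class carried the share. Transcripts of both classes exist for 19 genes. In the tables made from the reads, NMD exceeded retained-intron TPM in both libraries in 9 of them, and retained intron exceeded NMD in 9. The order differed between the libraries in 1 (Hnrnpll). Srsf9 has no retained-intron transcript, and its NMD transcript held 49.5% and 45.8% of the gene's TPM. Where both classes exist, NMD led in Hnrnpu (41.5% and 38.9%), Tra2a (39.6% and 38.0%), Srsf6 (37.8% and 35.2%) and Hnrnpdl (34.6% and 33.5%). From the alignment the order was reversed in Tra2a, with 7.73% and 18.0% in NMD and 18.1% and 24.2% in retained-intron transcripts. It was also reversed there in Hnrnph3 and Tra2b, and kept in Hnrnpu, Srsf6 and Hnrnpdl. By estimated reads, Tra2a had 401 NMD and 367 retained-intron reads in replicate 1, but 490 and 628 in replicate 2. In the tables made from the reads, retained introns led in Srsf11 (56.1% and 57.6%), Hnrnpa2b1 (33.6% and 38.0%) and Srsf7 (28.9% and 38.9%). They also led there in Hnrnpl (21.7% and 27.3%) and Srsf2 (20.6% and 25.7%). The median NMD share was 15.9% ± 0.0702 (SD, n = 2) over the 21 members with such transcripts, against 6.80% over all genes with them. The median retained-intron share over 24 members was 13.4% and 19.5%, against 8.95% and 10.7% over all genes.

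Single transcripts carried much of these shares. Hnrnpu-206, an NMD transcript of 17 exons whose stop lies 183 nt before the last junction, was the highest unproductive transcript of the members at 91.2 and 96.5 TPM, or 40.8% and 38.1% of the gene. Hnrnpa1-203 stood at 31.8 and 38.1 TPM, and Srsf6-201 at 25.2 and 27.6 TPM. Among retained-intron transcripts, Srsf5-212 measured 20.9 and 53.1 TPM, and Srsf6-204 9.65 and 19.3 TPM. Hnrnpa2b1-211 measured 20.3 and 38.1 TPM, and Srsf2-203 19.2 and 28.5 TPM. The highest retained-intron transcript, Hnrnpa2b1-208, was nearly level at 64.7 and 63.4 TPM in the tables made from the reads. From the alignment Hnrnpa2b1-208 was lower and not level, at 16.51 and 22.95 TPM. Srsf11-211 at 21.2 and 18.6 TPM and Hnrnpk-209 at 25.6 and 4.61 TPM were lower in replicate 2, so the transcripts of this class did not all move one way. At the other end, 11 of the 39 NMD transcripts were listed at 0 in both libraries in the tables made from the reads. Some of them had a level from the alignment, such as Hnrnpu-209 (23.03 and 32.94 TPM) and Hnrnpa2b1-209 (11.75 and 8.76 TPM). Others, such as Hnrnpd-209, stood at 0 there too. A further limit is that 10 NMD and 3 retained-intron transcripts have no base of their own outside the coding isoforms, so their levels rest on splice junctions and on the authors' assignment of reads.

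A TPM share weights short transcripts up, and the share of estimated reads was far lower in some genes. Srsf1 had 30.5% and 32.6% of its TPM but 5.70% and 5.95% of its reads in unproductive transcripts, and Hnrnpr had 16.7% and 8.63% of TPM but 3.95% and 4.23% of reads. In Tra2a and Srsf3 the share of reads was the higher one, at 68.9% and 73.9% in Tra2a and at 59.0% and 63.9% in Srsf3. The median share of reads was 27.4% over the members and 6.53% over all genes.

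In 8 of the 26 genes the unproductive TPM exceeded the protein-coding TPM in both libraries: Srsf11, Tra2a, Srsf6, Srsf9, Srsf3, Hnrnph3, Hnrnpll and Hnrnpu. The alignment-based tables turn the direction in both libraries for Tra2a (25.8% and 42.2% unproductive), Hnrnph3 (31.6% and 44.5%) and Hnrnpll (37.1% and 43.9%), and in replicate 1 for Srsf6 (45.9%). Hnrnpu had 48.2 and 54.9 TPM in protein-coding transcripts against 111 and 124 TPM in unproductive ones. Its log2 ratio of 1.18 ± 0.23 (SE) was the only one called above 0 (adjusted p = 0.0194, limma with Benjamini-Hochberg adjustment over 8621 genes). Tra2a had 13.7 and 16.5 TPM in coding transcripts against 19.6 and 28.4 TPM in unproductive ones, a log2 ratio of 0.64 ± 0.25 (adjusted p = 0.0895, limma). For Srsf11 the values were 46.3 and 50.7 TPM against 68.3 and 87.8 TPM, a log2 ratio of 0.68 ± 0.24 (adjusted p = 0.0782, limma). These 2 genes were thus higher in both libraries without passing the test. The same held for Srsf3, Srsf6, Srsf9, Hnrnph3 and Hnrnpll. Of these, Srsf3 had the largest log2 ratio, at 0.71 ± 0.25 (adjusted p = 0.0726, limma). Unproductive TPM was called below coding TPM in 13 members (3 SR genes, 10 hnRNP genes), and 12 were not called. Among all genes 4.85% were called above and 74.6% below. The median log2 ratio was -1.24 over the members and -2.51 over all genes. With 2 libraries the test leans on a spread shared across genes, and an exact test of a single gene cannot go below p = 0.5.

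**Figure D3:**
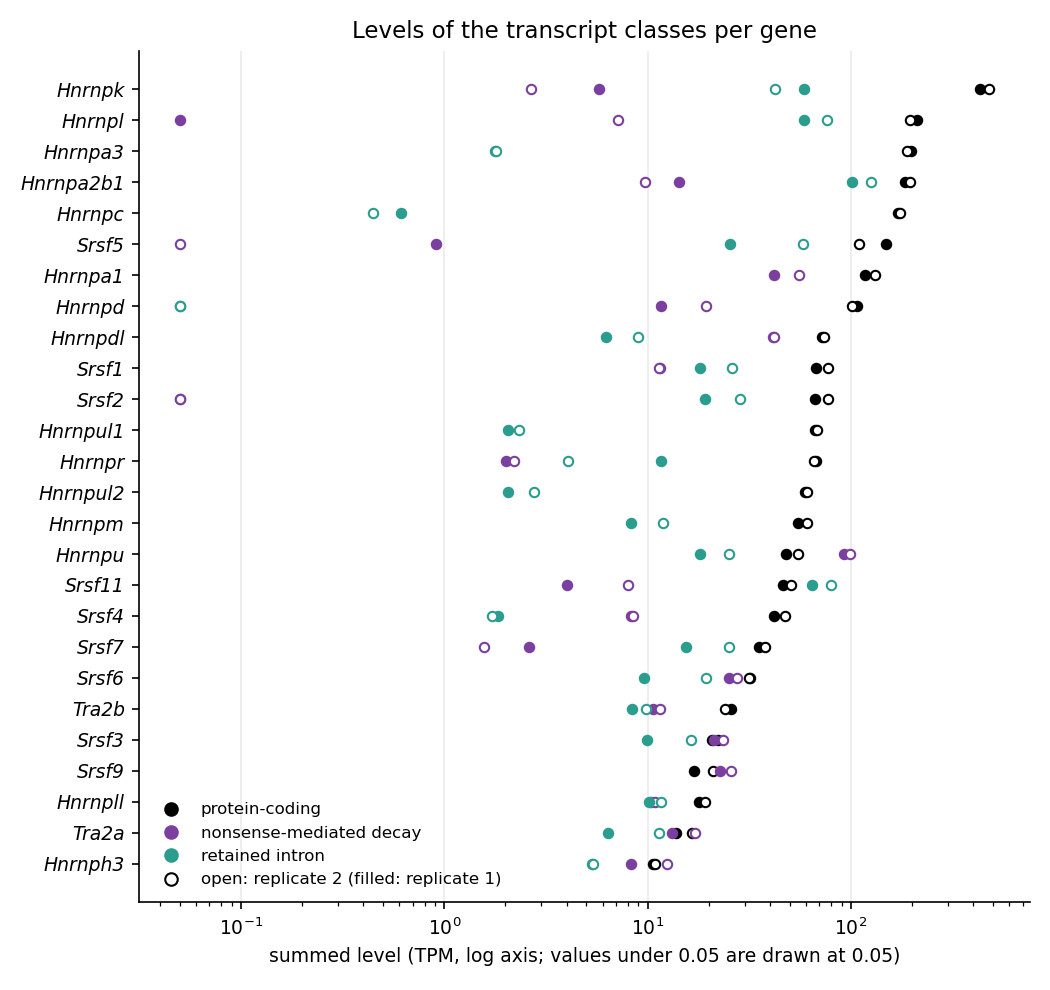
Summed TPM of protein-coding, NMD and retained-intron transcripts per gene on a log axis, in replicate 1 (filled) and replicate 2 (open), ordered by coding level from Hnrnph3 to Hnrnpk. In Hnrnpu the NMD points lie above the coding points, and in Hnrnpk, Hnrnpa3 and Hnrnpc the unproductive points lie far below them.

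The libraries differed in the unproductive share more often upward than downward. The share of estimated reads was compared per gene with a two-sided Fisher's exact test on rounded counts, replicate 2 against replicate 1, adjusted by Benjamini-Hochberg over 9279 genes. It was called higher in replicate 2 in 12 of the 26 members, against 20.3% of all genes tested, and lower in 2 (Hnrnpu and Hnrnpk), against 6.99%. The 12 were Srsf2, Srsf3, Srsf5, Srsf6, Srsf7, Srsf11, Tra2a, Hnrnpa1, Hnrnpa2b1, Hnrnpd, Hnrnpl and Hnrnpm. The members are abundant, which gives the test more reads. Among genes with 1000 or more counts over both libraries, 27.6% were called higher and 7.6% lower, and 12 and 2 of the 25 members at that depth. By family, 7 of 11 SR and Tra2 genes and 5 of 15 hnRNP genes were called higher.

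Retained introns alone gave a higher call in 10 of those 12 genes. The retained-intron share was called higher in replicate 2 in these 10 of 24 members and lower in 1 (Hnrnpk), against 18.2% and 3.71% of 8345 genes (26.2% and 4.37% of genes with 1000 or more counts). The SR and Tra2 genes gave 7 calls in 10 (Srsf2, Srsf3, Srsf5, Srsf6, Srsf7, Srsf11 and Tra2a). The hnRNP genes gave 3 in 14 (Hnrnpa2b1, Hnrnpl and Hnrnpm), a share near that of all genes. Without regard to calls, the share was up in 18 of 24 members and in 64.4% of all genes, so the direction was common to the transcriptome. The NMD share was up in 7 of 21 members and down in 13, against 41.7% and 39.8% of all genes. In this share 3 members were called higher (Hnrnpa1, Hnrnpd and Hnrnpl) and 4 lower (Hnrnpa2b1, Hnrnpk, Hnrnpu and Srsf7), against 16.3% and 15% of 4058 genes. In Hnrnpl the call rests on a transcript with 0 reads in replicate 1 and 177 in replicate 2. The authors' other quantification, from a transcriptome alignment, turns its direction, with Hnrnpl-213 at 2.51 TPM in replicate 1 and 0 in replicate 2. The NMD share of Hnrnpd was not higher there either, at 38.4% and 37.1% of TPM.

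Srsf5 moved most among the retained-intron calls of the members. Its retained-intron transcripts held 1071 of 4631 reads in replicate 1 and 2306 of 5026 in replicate 2, or 23.1% and 45.9% (log2 odds ratio 1.49, adjusted p = 5.21e-120, Fisher's exact test). Its protein-coding TPM was 149 in replicate 1 and 109 in replicate 2, while the TPM of the whole gene was 240 and 261. For Srsf6 the retained-intron reads made up 15.5% and 26.5% (log2 odds ratio 0.97, adjusted p = 1.81e-22), with coding TPM at 31.8 and 31.6. Both SR genes thus held a larger retained-intron share in replicate 2, with gene-level log2 ratios of 0.11 and 0.14. For Srsf7 the retained-intron reads were 23.5% and 31.2% and the NMD reads 5.44% and 2.54%. In Hnrnpa2b1 they were 25.1% and 32.0%, and 5.51% and 3.29%. In both genes the retained-intron share was called higher in replicate 2 and the NMD share lower.

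**Figure D4:**
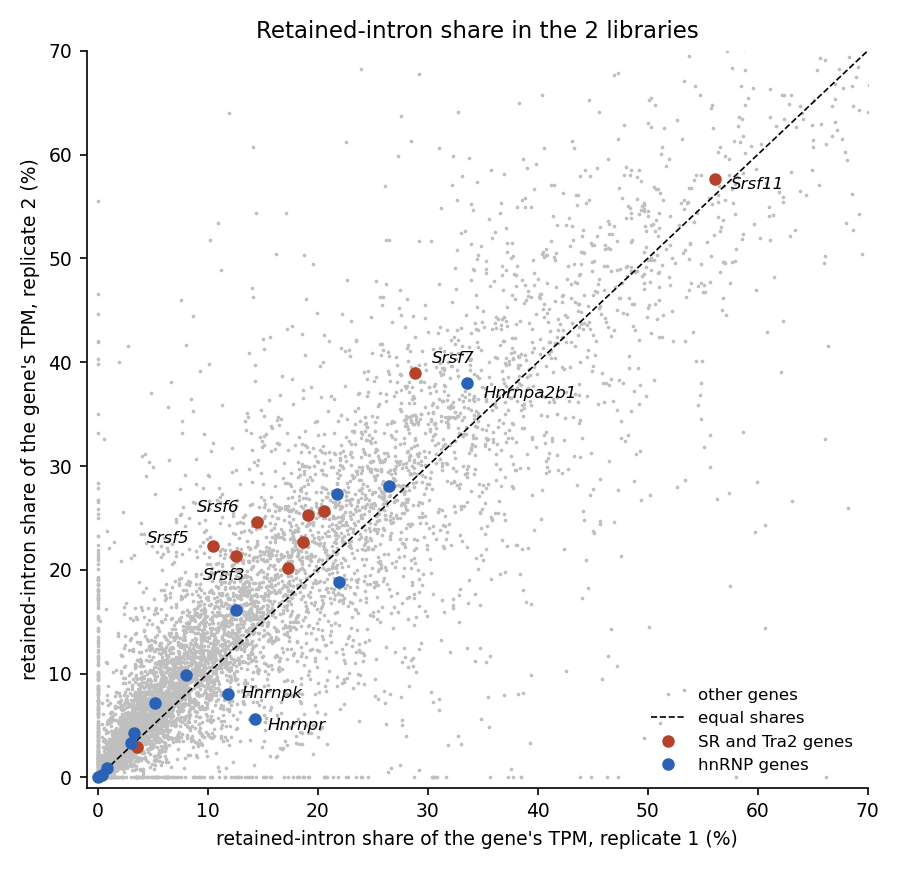
Retained-intron share of each gene's TPM (%) in replicate 1 (horizontal) and replicate 2 (vertical), for SR and Tra2 genes, hnRNP genes and all other genes with such transcripts, shown up to 70%. Points above the dashed line have the larger share in replicate 2, as Srsf5, Srsf6, Srsf3 and Srsf7 do, and Hnrnpr and Hnrnpk lie below it. For Hnrnpr other measures went the other way. Its retained-intron share was 3.26% and 3.58% of reads, and 2.96% and 6.02% of TPM from the alignment.

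Other measures moved along with the library. Of 6 RNAs known to stay in the nucleus, 5 were called higher in replicate 2 by an exact binomial test (Malat1 with 2781 and 3573 TPM, Meg3, Miat, Neat1 and Xist), and Rn7sk was not. Among all 18887 genes tested, 8.5% were called higher and 11.8% lower, with counting error only. The part of these nuclear RNAs in the retained-intron shares was not tested. The neuronal markers Snap25 (1292 and 1205 TPM) and Slc17a7 (1083 and 1061 TPM) were high in both, as fits the labelled cortex. Both were called lower in replicate 2 by the same test (log2 ratios -0.20 and -0.12). The neuronal markers Neurod6, Gad1 and Gad2 were not called. The oligodendrocyte markers Mog (64.5 and 31.1 TPM) and Mag (183 and 106 TPM) were lower in replicate 2, and Ttr, a choroid plexus gene, was higher (14.2 and 192 TPM). The part of cell makeup in the shares was not tested either. In tissue RNA, more cells of a type and more RNA per cell cannot be told apart. Gene totals were 33362673 and 32013950 estimated counts, and the members had 405 to 11160 and 495 to 11820 reads each.

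The level of the whole gene was compared with an exact binomial test on expected counts of the gene tables, scaled by edgeR's TMM factors and adjusted over 18887 genes. Of the 33 members, 15 were called higher in replicate 2 and 2 lower (Hnrnpa3 and Hnrnph2), against 8.5% and 11.8% of all genes. The SR and Tra2 genes gave 9 of these higher calls in 13 and the hnRNP genes 6 in 20. The largest log2 ratios were 0.40 for Tra2a (1083 and 1433 counts), 0.33 for Srsf10, 0.30 for Srsf7, 0.29 for Hnrnph1, 0.27 for Srsf11, 0.26 for Hnrnph3 and 0.25 for Srsf2. The median over the members was 0.09. All of these calls were lost when edgeR was given a dispersion of 0.01 between the libraries (0 higher, 0 lower). With total counts or spike-ins as the scale, 19 members were higher and 0 lower. Over all genes, the split was 1605 higher and 2236 lower under TMM, 2733 and 1145 under total counts, and 2570 and 1229 under spike-ins.

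The authors deposited a second quantification, from a transcriptome alignment instead of from the reads, and it set limits on single genes. Over the 26 members the 2 mean shares differed by a median of 5.31 percentage points and by at most 27.0, and 16 genes were within 10 points. As a description over members that share libraries and annotation, Pearson's r was 0.82 and Spearman's rho 0.84 (n = 26 genes). All 16 genes at 20% or more kept that side of the mark, and 20 genes reached it from the alignment. Tra2a had 25.8% and 42.2% there, Hnrnph3 31.6% and 44.5%, and Hnrnpll 37.1% and 43.9%, all lower than from the reads. Hnrnpu was higher at 68.8% and 65.6%, as were Hnrnpd at 40.0% and 37.8% and Hnrnpk at 26.9% and 25.4%. In the comparison of libraries, 11 members got the same call in the unproductive share from both quantifications (10 of them higher) and 0 got opposite calls. All 10 higher calls of the retained-intron share recurred from the alignment, which gave 12 higher and 0 lower, so the lower call of Hnrnpk did not recur.

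**Figure D5:**
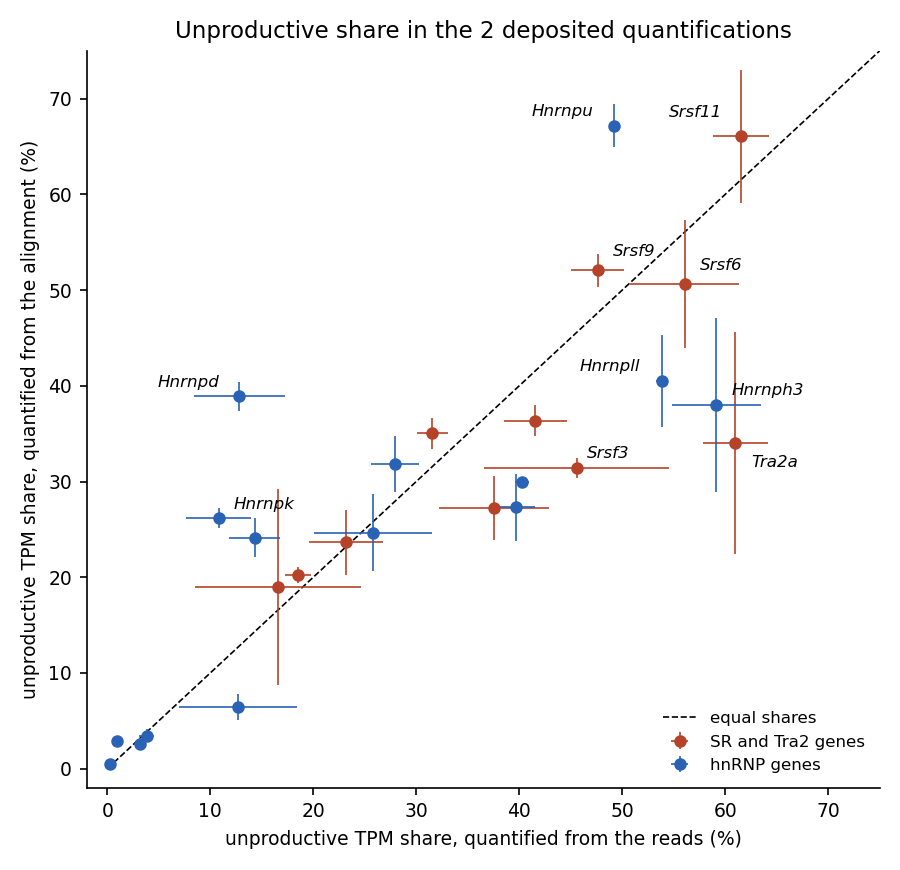
Mean unproductive TPM share (%) of the 26 genes quantified from the reads (horizontal) and from the alignment (vertical), with SD over the 2 libraries as bars. Tra2a, Hnrnph3 and Hnrnpll lie below the dashed line of equal shares, and Hnrnpu, Hnrnpd and Hnrnpk above it.

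Reads of some members cannot be placed for certain. The share of a gene's 31-base words that also occur in transcripts of other genes was 38.5% for Hnrnpf, 29.3% for Hnrnpa1, 28.1% for Hnrnpa3, 21.9% for Hnrnph2 and 17.1% for Hnrnpk, with the gene model Gm10052 leading for Hnrnpa1. It was 14.1% for Srsf5, 14.0% for Hnrnpm and 13.8% for Srsf3. Levels of these genes are uncertain to that extent. It was 0% for Srsf1, Srsf4, Srsf6, Srsf9, Hnrnpa0 and Hnrnpu. A part of several genes also lay in processed transcripts, which are counted in the denominator and not as unproductive. These held a mean of 53.7% of the TPM of Hnrnph1, 36.5% of Srsf10, 31.4% of Srsf5, 29.2% of Hnrnpu and 26.8% of Srsf3.

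Genes that act on the members had unproductive transcripts too. Of 10 genes for SR protein kinases and nuclear import of SR proteins, 9 had a share of 20% or more (median 35.6%). The highest were the kinases Clk1 (84.9% and 85.2%) and Clk4 (78.4% and 77.5%). Of 16 genes for the exon junction complex and NMD, 9 had such transcripts and 4 of them reached 20% (median 19.0%), against 38.3% of all genes with such transcripts, led by Magohb (84.5% and 81.2%) and Rbm8a (67.6% and 61.5%). Among 15 other SR-like and spliceosome genes the median was 29.9%, with Rbm39 at 58.2% and 62.8% and Luc7l2 at 36.7% and 41.8%. In that list 10 genes were called higher in replicate 2 and 1 lower in the unproductive share, against 20.3% and 6.99% of all genes tested. Among 16 other genes for RNA-binding proteins the median was 21.6%, with Tia1 at 64.8% and 70.3%, and 8 were called higher and 4 lower. In the first and the second of these lists, 1 and 3 genes were called higher, and 1 and 0 lower.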

How the data were processed

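The expected counts and estimated counts used here were deposited by the authors as unnormalised reads per gene or transcript, per the file headers. TPM values were deposited too, scaled by the authors to 1000000 over all rows of a table. The assembly was mm10 with GENCODE M21, per text files the authors deposited. The sources used here name neither the counter nor its strand setting. Reads of a B6CASTF1/J hybrid were thus assigned to mm10 transcripts, and genes overlapped on the other strand are uncertain.

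Shares were computed per gene and library from the transcript tables made from the reads. Fisher's tests used rounded estimated counts of genes with 20 or more in total. Log2 ratios of unproductive to coding TPM used a pseudocount of 0.1, which understates ratios of low genes, and limma 3.58.1. Gene levels used rounded expected counts of at least 10 in a library, edgeR 4.0.16 for TMM, and log2 of CPM (counts per 1000000) plus 0.5. DESeq2 1.42.0 size factors were an alternative. The software was R 4.3.3, Python 3.11.15 and scipy 1.17.1. Calls were made at an adjusted p under 0.05, and the tests were checked on simulated data. For the Fisher and binomial tests these data held counting error only. That check therefore does not cover spread between animals or errors in assigning reads.

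All members were named. Values per library were given for shares of 20% or more, the lowest shares and members called, and of each other list the 2 genes with the highest share were named, except for a result not reported here. Members and lists were chosen with earlier results of these data known. Alternatives were other quantifications, units, classes, denominators, filters, scales and single libraries.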

Additional observations from a re-analysis of the deposited data

How the results depend on the processing

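The median share of the members was 27.4% of estimated counts, 15.9% for NMD alone, 16.4% for retained introns alone and 36.3% with processed transcripts added, and that of all genes 6.53%, 6.80%, 9.82% and 17.9%. All genes had 11.3% in the alignment-based quantification. In single libraries the medians were 28.4% to 31.2% for the members and 12.4% to 14.1% for all genes. In the Fisher test of the unproductive share, 1 member was lower in the alignment-based tables, 1 for retained introns alone and 1 with coding plus unproductive transcripts as the denominator, and NMD alone gave 3 higher and 4 lower. The retained-intron share gave 0 lower in the alignment-based tables, an alternative added after seeing the data, as were minimums of 100 and 1000 counts. Unproductive TPM was called above coding TPM in 4 members with a pseudocount of 1, in 2 from the alignment and in 0 for retained introns alone. Gene-level calls of lower members went to 0 under total counts and under spike-ins, and with an edgeR dispersion of 0.01 there were 0 higher and 0 lower. The cause was not tested. No paired analysis was possible because there is 1 group. The tests between libraries could not be run without a library, since only 2 exist. Depth limits Hnrnpc and Hnrnpa3, with 2 to 8 unproductive reads per library.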
